A study of Canis lupus familiaris with 8 samples.

Results

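The endoplasmic reticulum (ER) is where secreted and membrane proteins enter, fold and are checked, and 36 genes of that pathway and of its stress response were followed in peripheral blood mononuclear cells (PBMCs) of 8 dogs. PBMCs are the lymphocytes and monocytes separated from blood. The genes were chosen by name, as a fixed list of symbols covering ER chaperones, protein-disulfide isomerases, stress sensors and their targets, the Sec61 translocon, the translocon-associated protein (TRAP) complex and the signal peptidase. The list was made with earlier results of these data known. All 36 were found, each in 1 row, among 35048 rows per library, and all 36 passed the filter on low counts. The obese group held 5 dogs, namely a Dachshund (dog 1), a Chihuahua (dog 2), 2 Labrador retrievers (dogs 3 and 4) and a Welsh Corgi (dog 5). The normal group held 3 Beagles. No treatment is named for either group, and each library is labelled as a separate dog. Because all normal dogs were Beagles and no obese dog was, body condition and breed cannot be told apart in any comparison below.

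Proteins bound for secretion or for membranes enter the ER through the Sec61 channel, lose their signal peptide to the signal peptidase, and fold with the help of HSP70-type and HSP90-type chaperones, lectin chaperones and disulfide isomerases. When unfolded proteins accumulate, the sensors IRE1 (ERN1), PERK (EIF2AK3) and ATF6 start the unfolded protein response (UPR), which raises chaperone transcription and, through PERK and ATF4, slows translation while inducing genes such as DDIT3 (CHOP). Among blood cells the machinery is most developed in antibody-secreting plasma cells.

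Libraries were 3′ tag libraries, in which a transcript is counted once, close to its poly(A) tail and whatever its length, with 10264202 to 14910982 counts in obese dogs and 10408203 to 14811053 in normal dogs. Expression is given as CPM, counts scaled by library size and TMM factor to the usual fixed total, and fold changes as log2, obese minus normal. The TMM factor was lowest in obese dog 3, at 0.747, and highest in obese dog 4, at 1.27. It was 0.870 in normal dog 2. The top gene took 20.6% of the counts of obese dog 3. Where dogs lie close together, their order depends on the TMM factors. Markers of the expected cells were present: the summed level of 8 T cell markers was 336 to 899 CPM in obese and 239 to 284 CPM in normal dogs, and that of 7 monocyte markers was 739 to 1367 CPM in obese and 1412 to 2608 CPM in normal dogs. Most of the monocyte sum in normal dogs came from VCAN, at 201 to 851 CPM in the obese and 920.5 to 2191 CPM in the normal dogs, and 5 of the 7 markers had a positive fold change (median 0.22). The 8 B cell markers summed to 89.6 to 395 CPM in obese and 73.7 to 143 CPM in normal dogs, with MS4A1 (CD20) at 0 in normal dog 2. The 8 markers listed for neutrophils summed to 7069 CPM in obese dog 3, 207 to 838 CPM in the other obese dogs. The same sums were 1686, 6896 and 4392 CPM in normal dogs 1, 2 and 3, and their part in the results was not tested. In obese dog 3, S100A8, S100A9 and S100A12 had 2131, 2225 and 1927 CPM. CSF3R and PADI4 had 423 and 329 CPM there, and CXCR2, MMP9 and CAMP 5.33, 15.8 and 12.8 CPM. Fold changes were negative in 5 of the 8 markers and positive in 3, and the sums are not read as an amount of neutrophils. Obese dog 3 also held most of the erythroid marker signal, at 1171 CPM against 17.6 to 55.5 CPM in the other obese dogs and 16 to 18.3 CPM in the normal dogs. The calls, the fold change of DDIT3 and the median of the ATF4 branch are also given without obese dog 3. Genes encoded in mitochondrial DNA, a share often read as a sign of RNA or cell quality, took 0.690% to 2.30% of the counts in obese and 4.60% to 6.28% in normal dogs, without overlap.

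Most luminal folding genes averaged lower in the obese dogs, and no common direction was seen in the ATF4 branch, whose median changed sign between fits. Of the 36 members, 30 had a negative log2 fold change (83.3%, against 44.7% of the 20632 genes tested), and their median was −0.48 where the median of all genes was 0.09. No member passed an adjusted p of 0.05 in edgeR's quasi-likelihood test, in which 0.184% of all genes passed as lower and 0.0485% as higher in obese dogs. At an unadjusted p under 0.05, 12 members were lower (33.3%) and 0 were higher, where 6.73% of all genes were lower and 9.01% higher. In 7 members (19.4%) every obese dog lay below every normal dog, as it did in 5.16% of all genes. Both shares were counted with TMM scaling only. Scaled by library total alone, obese dog 4 would lie above normal dog 2 in CRELD2, DNAJB11, SDF2L1, PDIA3, EIF2AK3 and SSR1. DNAJC3 would stay apart. No member had every obese dog above every normal dog, which held for 5.75% of all genes. Genes of a pathway are not independent of each other, and the list was made with earlier results of these data known. These shares describe the list and are no test of it. In bulk RNA, fewer cells of a type and less RNA per cell cannot be told apart. The mitochondrial share given above separated the same groups, and its part in these values was not tested. The 7 co-chaperones and small UPR targets had the lowest median of the 8 role groups, −0.79, followed by the disulfide isomerases at −0.64, the Sec61 subunits at −0.49 and the ER chaperones at −0.46. TRAP subunits had a median of −0.42, signal peptidase −0.30, the sensors −0.24 and the ATF4 branch 0.08. The median of the ATF4 branch turned to −0.86 without obese dog 3, −0.69 without obese dog 3 and normal dog 1, −0.02 without obese dog 1, −0.65 by limma-voom with quality weights and −0.04 with upper-quartile scaling.

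**Figure D1:**
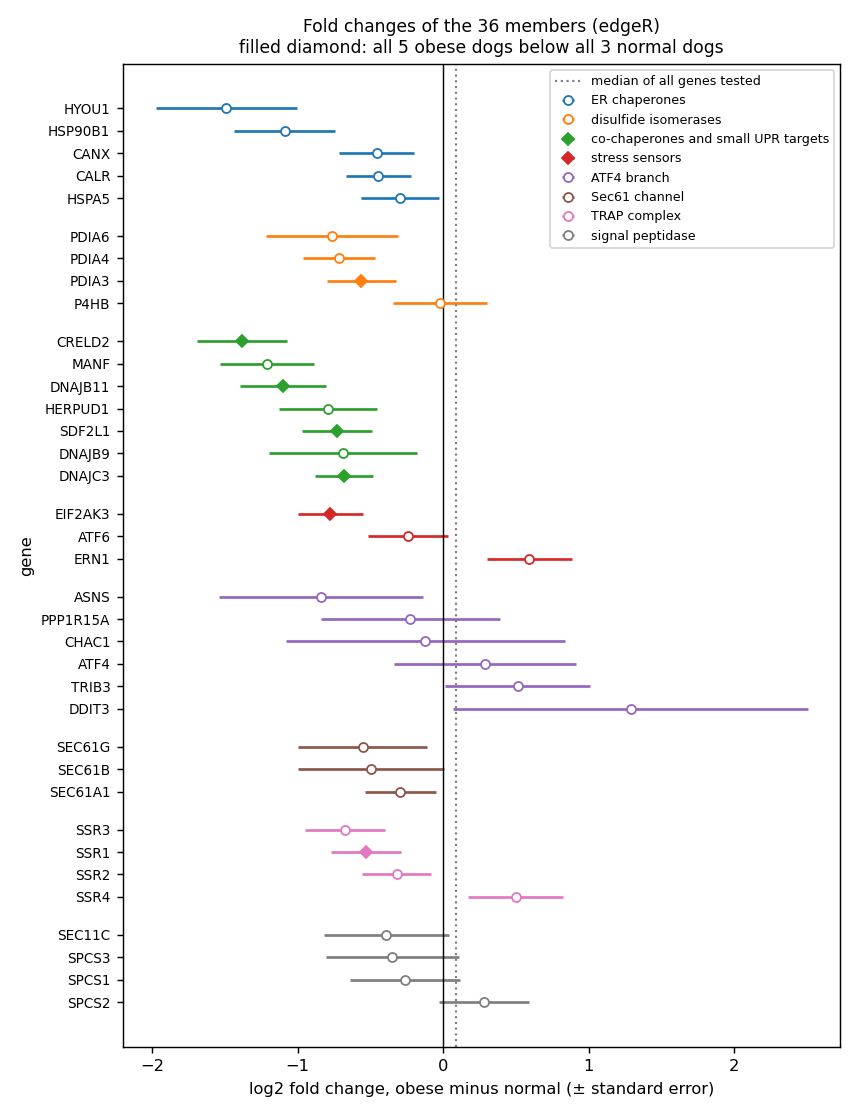
Log2 fold changes of the 36 members, obese minus normal, with standard errors from edgeR (horizontal axis), by gene and role group (vertical axis, colours). Filled diamonds mark the 7 members in which all 5 obese dogs were below all 3 normal dogs, and the dotted line is the median of all genes tested, 0.09; 30 of the 36 points lie below 0.

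All 5 ER chaperones had a negative fold change (44.7% of all genes did), and HYOU1 and HSP90B1 had the largest. HSP90B1 (GRP94), the HSP90 of the ER lumen, had 195, 176, 246, 97.1 and 108 CPM in obese dogs 1 to 5, against 471, 234 and 344 CPM in normal dogs 1 to 3. Normal dog 1 was the highest, obese dogs 4 and 5 were the lowest, and only obese dog 3 reached above normal dog 2. Its log2 fold change, with its standard error (SE), was −1.09 ± 0.349 (SE; adjusted p = 0.200, edgeR). HYOU1, a large HSP70-like chaperone that also serves as a nucleotide exchange factor for BiP, had 3.40, 7.01, 15.3, 4.07 and 4.32 CPM in obese dogs 1 to 5, against 20.2, 14.9 and 22.0 CPM in normal dogs 1 to 3. Obese dog 3 again sat just inside the normal range, and the other obese dogs were all below it. Scaled by library total alone, obese dog 3 would lie below normal dog 2 for both HSP90B1 and HYOU1. The fold change of HYOU1 was −1.49 ± 0.487 (SE; adjusted p = 0.207, edgeR). HSPA5 (BiP), the main HSP70 of the ER and the classical UPR target, had 420.1, 349, 456, 292 and 225 CPM in obese dogs 1 to 5, against 477, 397 and 409.8 CPM in normal dogs 1 to 3. Its groups overlapped broadly, with obese dogs 1 and 3 above normal dogs 2 and 3, and the fold change was −0.30 ± 0.269 (SE; adjusted p = 0.626, edgeR). The lectin chaperones CALR and CANX hold glycoproteins during folding. CALR had 185 ± 21.1 CPM in obese and 251 ± 54.9 CPM in normal dogs, and CANX had 69.7 ± 17.3 CPM in obese and 95.7 ± 17.0 CPM in normal dogs (SD, n = 5 and 3). Their fold changes were −0.44 and −0.46, with adjusted p-values of 0.372 and 0.416 (edgeR).

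The disulfide isomerases, which form and rearrange disulfide bonds in folding proteins, had 4 negative fold changes of 4 (44.7% of all genes were negative). PDIA3 (ERp57), which works with calreticulin and calnexin on glycoproteins, had 56.3, 56.2, 35.3, 49.5 and 44.2 CPM in obese dogs 1 to 5, against 84.6, 61.9 and 67.5 CPM in normal dogs 1 to 3. The groups did not overlap, although obese dogs 1 and 2 came close to normal dog 2. Its fold change was −0.56 ± 0.236 (SE; adjusted p = 0.291, edgeR). PDIA4 had 81.1, 88.5, 65.9, 107 and 99.0 CPM in obese dogs 1 to 5, against 173, 103 and 159 CPM in normal dogs 1 to 3. Obese dog 4 was above normal dog 2, and normal dogs 1 and 3 were above all others. The fold change of PDIA4 was −0.72 ± 0.249 (SE; adjusted p = 0.228, edgeR). PDIA6 had a similar fold change, −0.77, but ranged over 33.1 to 95.2 CPM in the obese and 36.6 to 167 CPM in the normal dogs, with normal dog 2 near the bottom. P4HB, the founding isomerase of the family, had 41.2 ± 11.1 CPM in obese and 41.8 ± 14.5 CPM in normal dogs (SD, n = 5 and 3) and a fold change of −0.02 (standard error 0.322). An uncharacterised gene overlaps PDIA4 in the reference annotation and ATP6V1C2 overlaps PDIA6, each with fewer counts than the member over the 8 libraries (2526 against 12133, and 736 against 9726).

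Every one of the 7 co-chaperones and small UPR targets had a negative fold change, where 44.7% of all genes did. In 6 of them (85.7%) the unadjusted p was under 0.05, as it was for 6.73% of all genes in that direction. CRELD2, an ER-stress-inducible protein of the lumen, had the smallest p of all members and 9.75, 8.0, 8.28, 14.4 and 7.23 CPM in obese dogs 1 to 5, against 31.8, 20.5 and 22.5 CPM in normal dogs 1 to 3. All obese dogs were below all normal dogs, and obese dog 4 was the closest. Its fold change was −1.38 ± 0.310 (SE; adjusted p = 0.105, edgeR). An overlapping uncharacterised gene had nearly the same values, 6.41 to 13.2 CPM in obese and 17.5 to 27.6 CPM in normal dogs, and without a known strand their reads could not be separated. MANF, a small ER-resident protein that is also secreted under stress, had 29.3, 38.1, 69.0, 41.4 and 44.3 CPM in obese dogs 1 to 5, against 140.1, 64.4 and 104 CPM in normal dogs 1 to 3. Obese dog 3 was just above normal dog 2, and the other obese dogs were below every normal dog. By library total alone, obese dog 3 would lie below normal dog 2 as well. MANF had a fold change of −1.21 ± 0.324 (SE; adjusted p = 0.142, edgeR). DNAJC3 (p58IPK), a co-chaperone of BiP that also restrains PERK, had 158, 167, 162, 144 and 125 CPM in obese dogs 1 to 5, against 255, 237 and 234 CPM in normal dogs 1 to 3. The groups were well apart, and the normal dogs lay within a narrow band. Its fold change was −0.68 ± 0.200 (SE; adjusted p = 0.171, edgeR).

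The remaining co-chaperones had values in the same direction. DNAJB11 (ERdj3), which brings unfolded proteins to BiP, ran over 18.1 to 25.1 CPM in the obese and 27.3 to 66.1 CPM in the normal dogs, and its partner SDF2L1 over 24.3 to 27.8 CPM in the obese and 30.7 to 53.3 CPM in the normal dogs. In DNAJB11 and SDF2L1 the obese dogs were tightly grouped below every normal dog, and the normal dogs were widely spread with normal dog 2 the lowest. Their fold changes were −1.10 and −0.73, with adjusted p-values of 0.146 and 0.210 (edgeR). HERPUD1, a membrane protein of ER-associated degradation, had 86.5, 69.5, 216, 125 and 125 CPM in obese dogs 1 to 5, against 199, 223 and 224 CPM in normal dogs 1 to 3. Obese dog 3 was at the level of the normal dogs and well above the other obese dogs. By library total alone, it would lie below every normal dog and close to obese dog 4. DNAJB9 (ERdj4), a co-chaperone that represses IRE1, was at 2.72 to 10.3 CPM in the obese and 4.09 to 16.2 CPM in the normal dogs and its groups overlapped, with a fold change of −0.69.

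**Figure D2:**
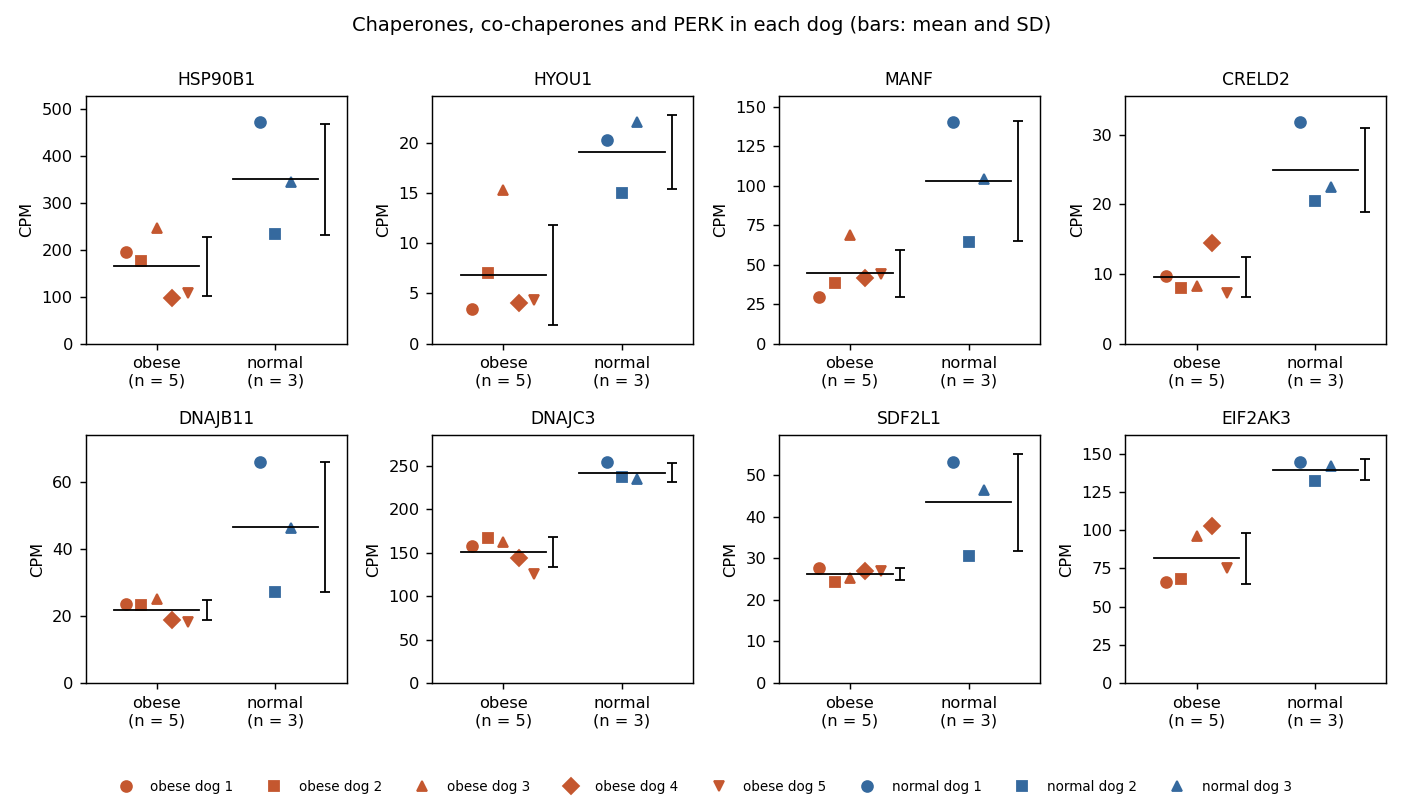
CPM (vertical axes, from 0) of 8 members in the 5 obese and 3 normal dogs; each point is a dog, horizontal lines are group means and bars the SD. In CRELD2, DNAJB11, DNAJC3, SDF2L1 and EIF2AK3 all obese dogs lie below all normal dogs, while obese dog 3 reaches the normal range in HSP90B1, HYOU1 and MANF.

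The 3 sensors differed in direction. EIF2AK3 (PERK), the kinase that phosphorylates eIF2α under ER stress, had 66.2, 67.8, 95.9, 102 and 75.0 CPM in obese dogs 1 to 5, against 145, 132 and 142 CPM in normal dogs 1 to 3. All obese dogs were below the normal dogs, which lay close together. The fold change of EIF2AK3 was −0.78 ± 0.223 (SE; adjusted p = 0.163, edgeR). ERN1 (IRE1α), the kinase and RNase that splices XBP1 mRNA, had 129, 89.5, 59.8, 65.9 and 69.9 CPM in obese dogs 1 to 5, against 60.3, 55.1 and 49.1 CPM in normal dogs 1 to 3. Obese dog 1 was the highest, and only obese dog 3 fell inside the normal range. ERN1 had a fold change of 0.59 ± 0.289 (SE; adjusted p = 0.354, edgeR), the opposite sign to that of EIF2AK3. ATF6, the sensor that is cleaved to a transcription factor, had 168, 154, 204, 102 and 103 CPM in obese dogs 1 to 5, against 156, 189 and 173 CPM in normal dogs 1 to 3. Obese dog 3 was the highest and obese dogs 4 and 5 the lowest, on either side of the normal dogs, and the fold change was −0.24 ± 0.275 (SE; adjusted p = 0.709, edgeR). XBP1, the target of IRE1, had 61.5, 127, 51.0, 99.5 and 83.9 CPM in obese dogs 1 to 5, against 118, 38.2 and 64.5 CPM in normal dogs 1 to 3, with overlapping groups and a fold change of 0.21. Tag counts near the poly(A) end do not separate spliced from unspliced XBP1.

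Genes of the ATF4 branch varied widely among the obese dogs. ATF4, the transcription factor translated when eIF2α is phosphorylated, had 1719.5, 881, 683, 263 and 189 CPM in obese dogs 1 to 5, against 728, 609 and 498 CPM in normal dogs 1 to 3. The obese dogs spanned the range from the highest to the lowest of all dogs, and the normal dogs lay in the middle. Its fold change was 0.29 ± 0.624 (SE; adjusted p = 0.858, edgeR). DDIT3 (CHOP), a pro-apoptotic factor downstream of ATF4, had 42.5, 29.9, 646, 26.7 and 24.3 CPM in obese dogs 1 to 5, against 34.2, 87.1 and 67.4 CPM in normal dogs 1 to 3. Obese dog 3 stood far above every other dog, and the other obese dogs were below normal dogs 2 and 3. With all dogs the fold change was 1.29 ± 1.22 (SE; adjusted p = 0.645, edgeR), and without obese dog 3 it turned to −1.06 (adjusted p = 0.0702, edgeR). MARS1, a tRNA synthetase gene that overlaps DDIT3 in the reference annotation, had 15.2, 13.9, 612, 12.4 and 9.91 CPM in obese dogs 1 to 5, against 22.2, 30.1 and 30.2 CPM in normal dogs 1 to 3. It was high in the same dog, and reads of DDIT3 and MARS1 could not be separated there.

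PPP1R15A (GADD34), which directs a phosphatase to eIF2α, had 6.35, 8.07, 48.0, 23.5 and 26.0 CPM in obese dogs 1 to 5, against 15.9, 40.9 and 21.8 CPM in normal dogs 1 to 3. Obese dog 3 and normal dog 2 were the highest and obese dogs 1 and 2 the lowest. TRIB3, a pseudokinase induced by CHOP, was at 1.70 to 6.52 CPM in the obese and 2.36 to 4.65 CPM in the normal dogs, with obese dog 3 the lowest dog. ASNS, asparagine synthetase, had 7, 24, 17, 11 and 7 counts in obese dogs 1 to 5, against 48, 6 and 25 counts in normal dogs 1 to 3. Normal dog 1 was the highest, the groups overlapped, and the fold change was −0.84 ± 0.700 (SE; adjusted p = 0.594, edgeR). CHAC1, which degrades glutathione, was counted 2 to 24 times in an obese and 8 to 22 times in a normal library. The fold change of CHAC1 was −0.12 ± 0.959 (SE; adjusted p = 0.967, edgeR).

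**Figure D3:**
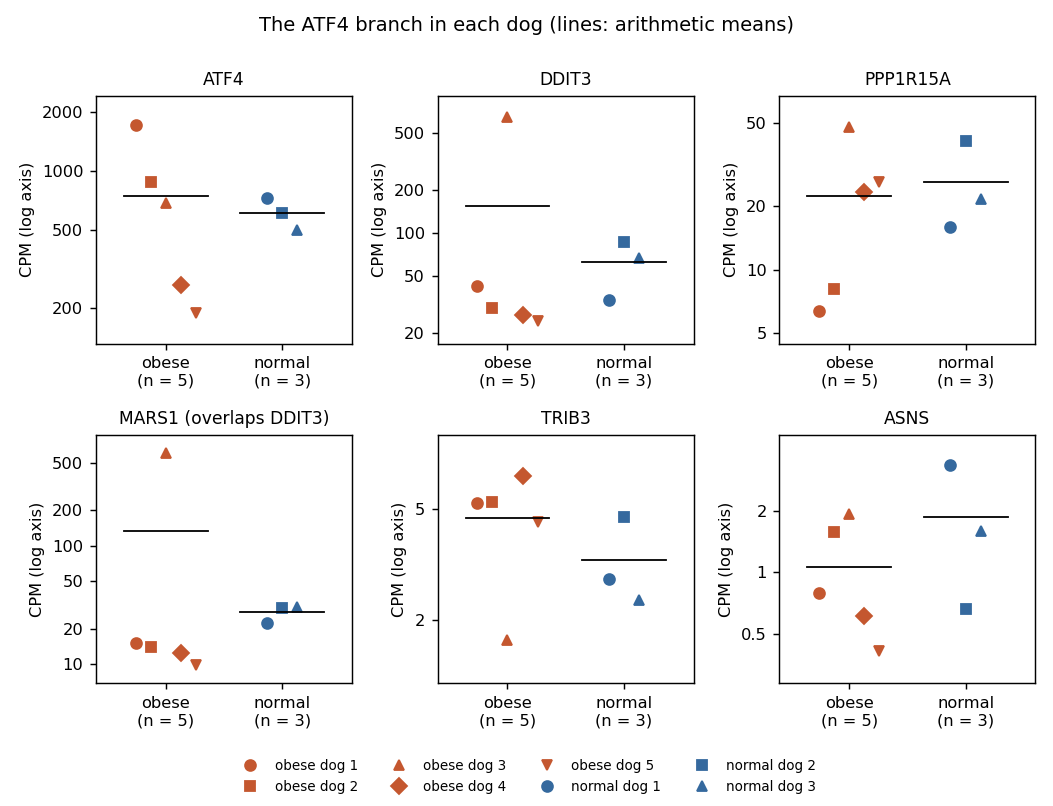
CPM on log axes (vertical) of 5 ATF4 branch members and of MARS1, which overlaps DDIT3, in the 5 obese and 3 normal dogs; each point is a dog and lines are arithmetic means. Obese dog 3 is the highest dog for DDIT3 and MARS1, at 646 and 612 CPM, and obese dogs span the whole range for ATF4.

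Entry and processing genes had a negative median in each of their 3 role groups, but normal dog 2 was above all obese dogs in only 1 of these 11 genes, SSR1. Without normal dog 1 the median of the signal peptidase turned to 0.07, that of Sec61 was −0.05 and that of TRAP −0.19. Without normal dog 1 and obese dog 3 the signal peptidase median was 0.16, that of Sec61 −0.15 and that of TRAP −0.20. SEC61A1, the pore-forming subunit of the translocon, had 60.7, 62.6, 78.8, 55.0 and 53.4 CPM in obese dogs 1 to 5, against 98.9, 59.4 and 70.1 CPM in normal dogs 1 to 3. Normal dog 1 was the highest and the groups overlapped (fold change −0.29). SEC61G, a small subunit that clamps the channel, had 26.8, 61.7, 54.1, 47.5 and 43.2 CPM in obese dogs 1 to 5, against 98.4, 20.7 and 86.2 CPM in normal dogs 1 to 3. Normal dogs 1 and 3 were above all obese dogs and normal dog 2 was below all of them, which leaves a standard error of 0.445 on a fold change of −0.55. SEC61B, another small subunit, again had normal dogs 1 and 3 the highest, and was at 24.0 to 76.6 CPM in the obese and 26.6 to 122 CPM in the normal dogs.

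Within the TRAP complex, which assists translocation beside Sec61, fold changes of the subunits differed in sign. SSR3 had 104, 119, 106, 94.5 and 77.9 CPM in obese dogs 1 to 5, against 225, 99.0 and 155 CPM in normal dogs 1 to 3. Obese dogs 1, 2 and 3 were above normal dog 2, and the fold change was −0.67 ± 0.277 (SE; adjusted p = 0.285, edgeR). SSR1 had 38.2, 29.2, 39.8, 52.1 and 49.2 CPM in obese dogs 1 to 5, against 62.4, 60.9 and 57.3 CPM in normal dogs 1 to 3. Every obese dog was below every normal dog, with obese dogs 4 and 5 the nearest, and the fold change was −0.53 ± 0.241 (SE; adjusted p = 0.322, edgeR). SSR2 was at 57.3 to 69.1 CPM in the obese and 57.0 to 106 CPM in the normal dogs. SSR4, in contrast, had a positive fold change of 0.50 ± 0.328 (SE; adjusted p = 0.496, edgeR), with obese dog 1 the highest and normal dogs 2 and 3 the lowest. Its values were 64.6 to 127 CPM in the obese and 43.0 to 95.4 CPM in the normal dogs. The difference between the subunits was not tested.

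Signal peptidase genes showed no separation of the groups. SEC11C, a catalytic subunit, had 154, 183, 92.8, 77.6 and 93.8 CPM in obese dogs 1 to 5, against 239, 60.1 and 173 CPM in normal dogs 1 to 3. Normal dog 1 was the highest and normal dog 2 the lowest dog, and the fold change was −0.39 ± 0.431 (SE; adjusted p = 0.698, edgeR). SPCS2, an accessory subunit, had 62.2, 46.5, 28.2, 42.5 and 42.2 CPM in obese dogs 1 to 5, against 49.9, 26.9 and 32.7 CPM in normal dogs 1 to 3. Obese dog 1 was the highest and normal dog 2 the lowest, with a positive fold change of 0.28 ± 0.309 (SE; adjusted p = 0.698, edgeR). SPCS1 and SPCS3 had fold changes of −0.26 and −0.35, and SPCS1 overlaps NEK4, which had 38.1 to 69.3 CPM in obese and 24.6 to 71.4 CPM in normal dogs. NEK4 had more counts than SPCS1 over the 8 libraries (5651 against 4362), and reads of the pair could not be separated. SPCS3 was lowest in obese dog 3, at 12.7 CPM, and at 28.5 to 64.1 CPM in the other obese dogs.

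The normal dogs differed among themselves in the values of the members. Normal dog 1 was above all 5 obese dogs in 25 of the 36 members, normal dog 3 in 21 and normal dog 2 in 8. Conversely normal dog 2 was below all obese dogs in 7 members, normal dog 3 in 2 and normal dog 1 in 0. Normal dog 1 was the highest of all 8 dogs in 24 members. Relative to the median obese dog of each gene, the median member was 0.75 log2 units higher in normal dog 1, 0.63 in normal dog 3 and 0.14 in normal dog 2. Among obese dogs, dog 5 was the lowest of all 8 dogs in 10 members and dog 3 in 7. These positions were not counted over all genes, so whether the members differ from other genes in them is not known. Without normal dog 1, 6 members (16.7%) were lower at an unadjusted p under 0.05, where 7.04% of all genes were, and the median of the members was −0.28.

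**Figure D4:**
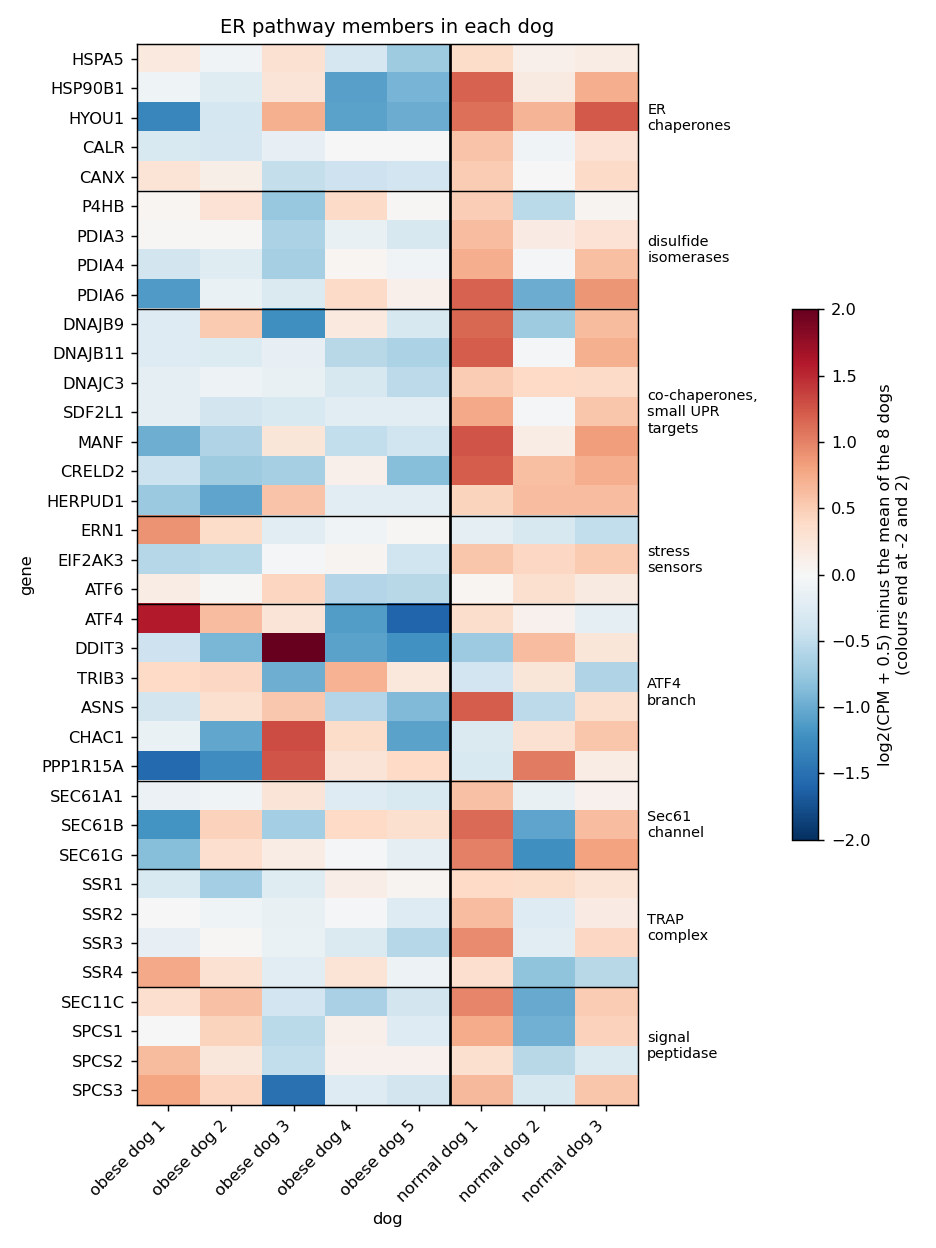
Log2(CPM + 0.5) of each member (rows, by role group) minus its mean over the 8 dogs, in each obese and normal dog (columns; colour scale from −2 to 2, values beyond it drawn at its ends). Normal dog 1 is the highest dog in 24 of 36 rows, normal dog 2 lies within or below the obese dogs in the Sec61 and signal peptidase rows, and obese dog 3 stands out for DDIT3.

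Leaving out obese dog 3 changed the calls. In the 7 remaining dogs 7 of the 36 members fell in the obese dogs at an adjusted p under 0.05 (19.4%, edgeR), where 5.03% of all genes fell, and no member rose. These were HYOU1 at −2.05 (adjusted p = 0.00730), MANF at −1.46 (adjusted p = 0.0145), CRELD2 at −1.37, HSP90B1 at −1.32, DNAJB11 at −1.19, HERPUD1 at −1.12 and EIF2AK3 at −0.88, with 0.0373 as the largest adjusted p (edgeR). All but EIF2AK3 are chaperones, co-chaperones or small UPR targets. With obese dog 3 and normal dog 1 both left out, a choice made after the data were seen, HYOU1, MANF and HERPUD1 fell, and so did DDIT3 at −1.32 (adjusted p = 0.0310, edgeR), which is 11.1% of the members against 4.57% of all genes. A limma-voom fit that gives each library a quality weight called 10 members lower (27.8%, against 9.90% of all genes), adding PDIA4, DNAJC3 and SDF2L1 to the 7. DESeq2's Wald test called DNAJB11, DNAJC3, MANF and CRELD2 lower, where 2.07% of all genes were called lower. None of these fits called a member higher.

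Markers of plasma cells and of dividing cells were also lower on average in the obese dogs. Of the 9 plasma cell markers that could be tested 8 were negative (median log2 fold change −1.66), where 44.7% of all genes were. The 10 markers summed to 150.3 to 324 CPM in obese and 440.0 to 1206 CPM in normal dogs. JCHAIN, which joins secreted IgA and IgM, had 5.56, 16.7, 24.4, 34.2 and 35.3 CPM in obese dogs 1 to 5, against 602, 54.8 and 408 CPM in normal dogs 1 to 3. All obese dogs were below all normal dogs, with normal dog 2 far below the other normal dogs. TNFRSF17 (BCMA), a survival receptor of plasma cells, was the 1 marker that fell past the adjusted threshold, at 0.227 to 1.11 CPM in the obese and 8.96 to 16.9 CPM in the normal dogs, a fold change of −4.39 ± 0.537 (SE; adjusted p = 0.0228, edgeR). Of all genes, 0.184% fell past that threshold. MZB1, a plasma cell co-chaperone of the ER, was at 0 in obese dog 1, 0.292 to 2.95 CPM in the other obese dogs and 4.09 to 13.3 CPM in the normal dogs. SDC1 (CD138), with too few counts to be tested, was under 1 CPM in every dog, at 0 in obese dog 1 and higher on average in obese dogs (0.398 ± 0.334 CPM in obese and 0.128 ± 0.0752 CPM in normal dogs, SD, n = 5 and 3). PIM2, a kinase gene, was the 1 tested marker with a positive fold change, 1.54 ± 0.806 (SE; adjusted p = 0.390, edgeR), at 11.3 to 112 CPM in the obese and 7.64 to 23.9 CPM in the normal dogs. CD38 and SLAMF7 had small negative fold changes, −0.23 and −0.35, and their groups overlapped (adjusted p = 0.851 and 0.761, edgeR). As in the ER members, normal dog 1 was the highest and normal dog 2 the lowest of the normal dogs in the mean of the plasma cell markers (5.33, 4.12 and 4.94 log2 CPM in normal dogs 1, 2 and 3). That order was not particular to these lists. The T cell (4.98, 4.75 and 4.78) and monocyte (6.57, 5.55 and 5.90) means had it too. So did the natural killer and cytotoxic (2.72, 2.10 and 2.55) and proliferation (4.22, 3.49 and 4.19) means. The B cell, plasmacytoid dendritic cell, neutrophil, platelet and erythroid means did not. All 8 proliferation markers were negative as well, with a summed level of 52.4 to 208 CPM in obese and 194 to 331 CPM in normal dogs and CDK1 at 0 in obese dog 1. In the other direction, the 8 T cell markers all had positive fold changes, with the sums given above not overlapping between the groups, and 6 platelet markers summed to 107 to 2662 CPM in obese and 29.5 to 51.0 CPM in normal dogs. The 8 B cell markers were all positive too (median 0.80), 0 of them at an unadjusted p under 0.05 (edgeR), and their sums overlapped. The part of any of these cell populations in the values of the ER genes was not tested.

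**Figure D5:**
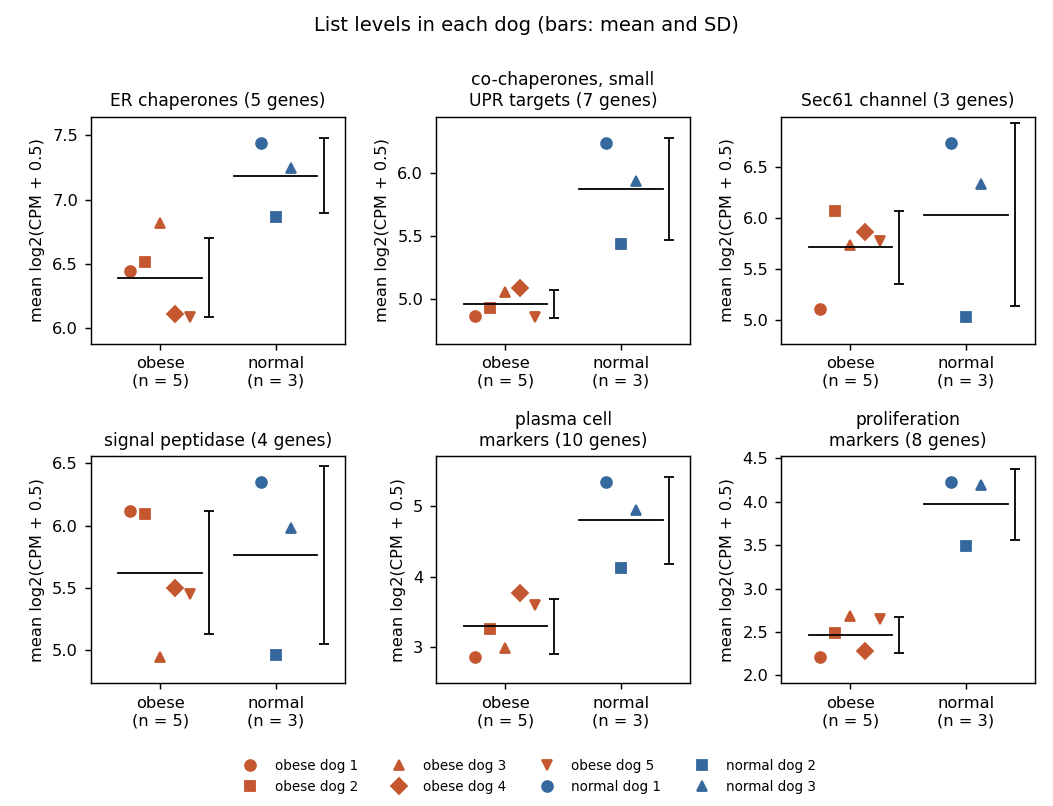
Mean log2(CPM + 0.5) (vertical axes, not from 0) of 4 role groups of the ER pathway and of 2 marker lists in the 5 obese and 3 normal dogs; each point is a dog, with group means and SD. For ER chaperones, co-chaperones, plasma cell markers and proliferation markers all obese dogs lie below all normal dogs, and the Sec61 and signal peptidase genes overlap, with normal dog 2 the lowest of the normal dogs in all 6 panels.

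Other genes of the pathway, taken from 7 further lists, were also negative more often than not. Of 76 tested, 55 had a negative fold change (72.4%, against 44.7% of all genes), 11 were lower (14.5%, against 6.73% of all genes) and 1 was higher at an unadjusted p under 0.05 (9.01% of all genes were), and 0 passed the adjusted threshold in either direction (edgeR). TXNDC5, a disulfide isomerase abundant in plasma cells, had 10.9, 17.1, 17.8, 34.5 and 25.5 CPM in obese dogs 1 to 5, against 171, 48.7 and 102 CPM in normal dogs 1 to 3. All obese dogs were below all normal dogs, and the fold change was −2.34 ± 0.434 (SE; adjusted p = 0.0680, edgeR). In ER export and retrieval, 5 of 18 genes were lower at an unadjusted p under 0.05 (27.8%, against 6.73% of all genes). SEC24A, a cargo-binding subunit of the COPII coat, had 54.6, 71.0, 79.3, 41.1 and 32.0 CPM in obese dogs 1 to 5, against 123, 273 and 143 CPM in normal dogs 1 to 3, with normal dog 2 the highest and no overlap. SEC24A had a fold change of −1.69 ± 0.356 (SE; adjusted p = 0.0877, edgeR). LMAN1, a lectin receptor that carries glycoproteins out of the ER, and KDELR2, a receptor that returns escaped chaperones to it, were chosen after their values were seen. LMAN1 was at 29.0 to 58.5 CPM in the obese and 62.4 to 174 CPM in the normal dogs, and KDELR2 at 38.3 to 57.8 CPM in the obese and 71.2 to 87.8 CPM in the normal dogs.

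ER-associated degradation had 1 of 13 genes lower at an unadjusted p under 0.05 (7.69%, near the 6.73% of all genes), DERL3, a derlin of the degradation machinery, which was at 0 to 1.45 CPM in the obese and 0.996 to 4.53 CPM in the normal dogs. The N-glycosylation list had 0 of 8 such genes, and the list of signal recognition particle, receptor and translocation genes had 0 of 12, with STT3A, a catalytic subunit of the oligosaccharyltransferase, at −0.65 and SEC63, a partner of the Sec61 channel, at −0.51 as the genes with the smallest p (adjusted p = 0.393 and 0.358, edgeR). In the XBP1 and ATF6 list, 0 of 4 genes were lower or higher at an unadjusted p under 0.05, 3 of the 4 fold changes were positive, and CREB3L2, an ER-bound transcription factor, had 89.4 ± 14.9 CPM in obese and 128 ± 30.8 CPM in normal dogs (SD, n = 5 and 3). ERO1A, an oxidase that recharges disulfide isomerases, was the 1 gene higher at an unadjusted p under 0.05. Its values were 21.4 to 36.7 CPM in the obese and 16.9 to 21.4 CPM in the normal dogs, and its fold change was 0.63 ± 0.275 (SE; adjusted p = 0.307, edgeR).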

How the data were processed

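RNA of PBMCs from 5 obese and 3 normal dogs was extracted with Trizol and made into Lexogen QuantSeq libraries, per the labels' protocols. The authors deposited unnormalized whole-number counts per gene symbol, 1 table per dog. Bowtie2 and bedtools were used, per the submitters' processing notes. Tool versions, genome build, annotation and strand were not given in the sources used here. Of 35048 rows, 411 were further rows of a repeated symbol (no member among them) and were kept under another name. Overlapping genes were looked up in RefSeq's UU_Cfam_GSD_1.0 gene table, which held all 36 members. Libraries were not duplicates of each other (lowest chi-square per degree of freedom 40.5).

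Counts were analysed across all genes in R 4.3.3 with edgeR 4.0.16: filterByExpr by group (20632 genes kept), TMM scaling, robust glmQLFit and glmQLFTest, with Benjamini-Hochberg adjustment over all genes tested. The common biological coefficient of variation was 0.54. Standard errors were taken as the size of a fold change over the root of its F statistic. The edgeR step was tested on simulated data, with 50 genes changed at each size. It called 0% of 2-fold, 30% of 4-fold, 60% of 8-fold and 76% of 16-fold changes, and 4 of 19743 unchanged genes. The changed genes were drawn at random from all genes kept, and rates for the members alone were not measured. HYOU1 had a 2.79-fold difference between group means, so a member without a call may still have changed. Alternatives were DESeq2 1.42.0 size factors, upper-quartile factors, DESeq2's Wald test, limma 3.58.1 voom with sample quality weights, no low-count filter, summed repeated symbols, a replicate block, and leaving out each dog. Members, lists and tests were chosen with earlier results of these data known. A planned search of promoter and protein sequences was not run. Values in every dog are given for the 2 members with the smallest p and the 1 with the highest mean CPM in each role group, and for further pathway lists the gene with the smallest p is named; PPP1R15A, HERPUD1, XBP1 and other genes named beyond this rule were chosen after their values were seen. List levels use log2(CPM + 0.5).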

Additional observations from a re-analysis of the deposited data

Results flagged for a closer look

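Among the obese dogs, DDIT3 in dog 3 lay far from the rest, at 646 CPM where the next obese dog had 42.5 CPM, a gap of 0.971 of the range of the 5 dogs. It was the 1 such value among the 36 members, where chance alone marks about 1 in 20 groups of values. MARS1, which overlaps DDIT3 in the reference annotation, had 612 CPM in that dog and 9.91 to 15.2 CPM in the other obese dogs. Of the other ATF4 branch members in obese dog 3, CHAC1 (2.72 CPM) and PPP1R15A (48.0 CPM) were also the highest of the 8 dogs, TRIB3 (1.70 CPM) was the lowest, and ATF4 (683 CPM) was in the middle. The cause was not tested.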

How the results depend on the processing

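Over all 16 alternatives the median of the members stayed negative, from −0.28 (without normal dog 1) to −0.67 (without normal dog 2), against −0.48 with all dogs. Over all genes, 10 were called higher and 38 lower. DESeq2's Wald test called 599 and 428, limma-voom with quality weights 1881 and 2043, and the fit without obese dog 3 and normal dog 1 called 542 and 982. Leaving out 1 dog at a time gave 0 to 661 higher and 2 to 1023 lower, and 0 to 7 members called lower. Members called lower were 4 by DESeq2, 10 by limma-voom and 4 without obese dog 3 and normal dog 1, and the other alternatives that used all dogs called 0. In the alternatives that called no member, 6 to 15 members (16.7% to 41.7%) were lower at an unadjusted p under 0.05, where 3.47% to 8.90% of all genes were. DDIT3 reversed to −1.32 without obese dog 3 and normal dog 1, and DESeq2 gave it no p. The median of the ATF4 branch was −0.86 and that of the co-chaperones −1.12 without obese dog 3, and upper-quartile scaling moved the median of all genes to −0.03. The causes were not tested.

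Dogs with the same number in the 2 groups are different animals, and their deviations from the group means did not go together (r = −0.02, −0.23 and 0.01 across genes for numbers 1, 2 and 3, genes not being independent replicates). With the replicate block 0 genes were called higher and 0 lower, 6 members (16.7%) were lower at an unadjusted p under 0.05, where 3.47% of all genes were, and the median of the members was −0.42. CHAC1 and ASNS had the fewest counts of the members.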

Other observations

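Genes of the wider integrated stress response, the eIF2α pathway that PERK shares with other kinases, were negative in 8 of 12 cases (66.7%, against 44.7% of all genes), 3 of them at an unadjusted p under 0.05 (25%, against 6.73%) and 0 at an adjusted one (edgeR). All but EIF2AK2 are named here after their values were seen. EIF2AK2 (PKR), the kinase that senses double-stranded RNA, had 2.38, 6.41, 7.49, 4.29 and 2.86 CPM in obese dogs 1 to 5, against 12.6, 38.5 and 33.0 CPM in normal dogs 1 to 3, without overlap and with a fold change of −2.58 ± 0.469 (SE; adjusted p = 0.0666, edgeR). An overlapping uncharacterised gene had 1.70 to 13.7 CPM in obese and 11 to 34.2 CPM in normal dogs, and reads of the pair could not be separated. The heme-sensing kinase EIF2AK1 and the amino acid sensor EIF2AK4 (GCN2) had fold changes of 0.39 and −0.07, with adjusted p-values of 0.574 and 0.906 (edgeR). Among enzymes that ATF4 is known to induce, PSAT1, of serine synthesis, was at 5.37 to 12.2 CPM in the obese and 10.5 to 27.2 CPM in the normal dogs, and PHGDH and SHMT2 had fold changes of −0.68 and −0.70. ATF3, a stress-induced factor that overlaps a non-coding gene, had 13.5, 16, 61.5, 15.1 and 18.5 CPM in obese dogs 1 to 5, against 53.0, 70.9 and 56.1 CPM in normal dogs 1 to 3. The non-coding gene had 4323 counts against 3766 of ATF3, and their reads could not be separated. With TMM scaling, obese dog 3 was at the level of the normal dogs, as it was for HERPUD1.

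FKBP11, a prolyl isomerase of secretory cells, had 9.75, 12, 17.2, 16.3 and 10.7 CPM in obese dogs 1 to 5, against 58.1, 5.64 and 49.5 CPM in normal dogs 1 to 3. Normal dogs 1 and 3 were above every obese dog and normal dog 2 was below all of them, the same order of normal dogs as in SEC61G and JCHAIN within the normal group. The T cell and monocyte marker means had that order of normal dogs as well, and the B cell and neutrophil marker means did not.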
